A study of Mus musculus with 12 samples.

Results

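The endoplasmic reticulum (ER) folding response was described here through 10 genes: Sdf2l1, Creld2, Hyou1, Pdia4, Derl3, Hspa5, Dnajb9, Xbp1, Herpud1 and Manf. They were found by their gene symbol in the annotation of the array platform, which gave 19 of 45101 probe sets and 10 of the 18194 genes tested. Liver RNA of mice of the mixed strain SV129XC57Bl/6 was hybridised to an Affymetrix mouse expression array, with 3 arrays in each of 4 groups. The groups were control mice that had been fasted, control mice that had been fasted and refed, fasted mice labelled LG2KO and treated with tamoxifen, and refed LG2KO mice treated with tamoxifen. Each hybridisation used RNA pooled from 3 animals. All n below are therefore 3 pools, and the spread between single animals was not measured. LG2KO is read here as a loss of Glut2 (gene Slc2a2), the main glucose transporter of hepatocytes. The labels leave the name unexplained and give no Cre driver, age, sex or duration of fasting and refeeding. Tamoxifen is named for the LG2KO arrays alone, and its effect cannot be told apart from that of genotype. For the LG2KO fasted arrays, 1 label reads fasted/refed, but title and diet both read fasted and were followed. The series asks how glucose sensing in the liver bears on the glucose competence of beta cells.

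Secreted and membrane proteins fold inside the ER, where chaperones hold unfinished chains and oxidoreductases form their disulfide bonds. When unfolded protein builds up, the sensors Ire1, encoded by Ern1, Perk, encoded by Eif2ak3, and Atf6 signal to the nucleus. Ire1 cuts the Xbp1 transcript so that it encodes an active transcription factor, and Atf6 is cut into one. Both factors raise chaperones, folding enzymes and the machinery that returns misfolded protein to the cytosol for degradation. Hepatocytes secrete most plasma proteins, and feeding is known to engage this response in liver.

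The targeted gene Slc2a2 differed between LG2KO and control by −7.21 ± 0.25 (SE) after refeeding and by −6.73 ± 0.25 in the fasted state on the log2 scale (limma adjusted p = 2.26e-08 and 5.21e-08). Pck1, the fasting-induced gluconeogenic enzyme, fell by 0.72 ± 0.16 (SE) with refeeding in control (limma adjusted p = 0.0153) and fell by 0.58 ± 0.16 in LG2KO (adjusted p = 0.0429). The control call of Pck1 ended without control fasted replicate 1, and the LG2KO call held in 1 of 6 fits that left out 1 array. Arrays of 1 group correlated at 0.983 or more across the genes tested. Control refed replicate 1 and LG2KO fasted replicate 3 stood apart from their groups, and without them the lowest correlation was 0.994. Transcripts of exocrine pancreas, a tissue rich in ER, were present on control fasted replicate 3: its mean over 10 measured marker genes was 7.82 against 5.07 to 5.35 on the other 11 arrays. Markers of hepatocytes averaged 13.43 to 13.68 on all arrays and those of B and plasma cells averaged 4.79 to 5.15.

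Refeeding was followed by a rise of 7 of the 10 genes in control livers and 8 of 10 in LG2KO livers. Creld2 and Sdf2l1 had the largest rises, by over 5-fold in both genotypes. By size they were followed by Hyou1, Manf, Derl3, Pdia4 and Hspa5 in control, and by Derl3, also above 5-fold, Hyou1, Manf, Pdia4 and Hspa5 in LG2KO. Xbp1 rose in LG2KO by a small amount. Dnajb9 and Herpud1 did not pass in either genotype. No member fell. Over all genes tested, 6.46% passed in control, 3.29% as higher and 3.17% as lower, and 7.05% passed in LG2KO, 4.66% as higher and 2.4% as lower. The median log2 difference of the 10 genes was 1.31 in control and 1.48 in LG2KO, against −0.01 and 0.01 over all genes. The 10 genes and the lists below were chosen with earlier results of these data known. Contrasts with all genes, here and below, are therefore not independent tests. Each value below is the log2 level or log2 difference of the probe set with the highest mean of its gene, and a gene passed at a limma adjusted p below 0.05 over all genes.

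**Figure D1:**
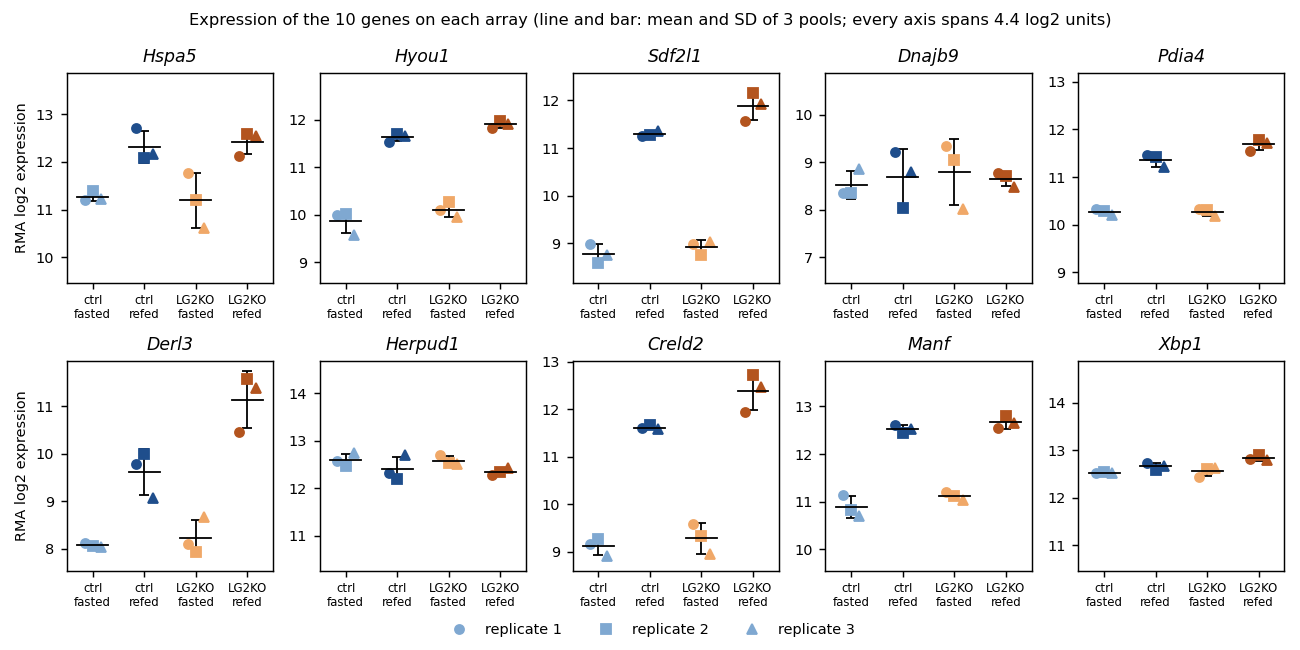
Log2 level of each of the 10 genes on all 12 arrays, 1 panel per gene. All panels span the same log2 range, each centred on the values of its gene. Points are single arrays (pools of 3 animals), horizontal bars are group means and vertical bars SD. For Sdf2l1, Creld2, Hyou1, Manf, Pdia4, Derl3, Hspa5 and, by small steps, Xbp1, every refed array lies above every fasted array of its genotype.

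Among the chaperones, Hspa5 encodes BiP, the main Hsp70 of the ER lumen. Its level was 11.20, 11.39 and 11.23 on the control fasted arrays and 12.71, 12.08 and 12.16 on the control refed arrays. In LG2KO it was 11.77, 11.20 and 10.62 fasted and 12.12, 12.58 and 12.54 refed. The fasted and refed arrays did not overlap in either genotype, although the highest control refed and the lowest LG2KO fasted value came from the arrays that stood apart. Hspa5 rose by 1.05 ± 0.24 in control (2.06-fold, limma adjusted p = 0.0221) and by 1.22 ± 0.24 in LG2KO (2.32-fold, adjusted p = 0.00933). Without both arrays that stood apart, the control rise was 0.85 (adjusted p = 0.00586). It missed the threshold when control refed replicate 1 or any 1 control fasted array was left out, with an adjusted p of at most 0.0827.

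Hyou1 encodes Grp170, a large Hsp70-related protein that exchanges nucleotide on BiP. Its control levels were 10.001, 10.01 and 9.57 fasted and 11.54, 11.71 and 11.67 refed. In LG2KO they were 10.10, 10.27 and 9.96 fasted and 11.82, 11.98 and 11.90 refed. The refed arrays of both genotypes lay within a narrow band above all fasted ones. The rise was 1.78 ± 0.12 in control (3.43-fold, limma adjusted p = 4.89e-06) and 1.79 ± 0.12 in LG2KO (3.46-fold, adjusted p = 4.47e-06).

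Sdf2l1 encodes a lumenal protein that works with ER DnaJ co-chaperones and BiP. Its levels were 8.99, 8.59 and 8.75 in control fasted livers and 11.25, 11.28 and 11.35 in control refed livers. LG2KO livers had 8.98, 8.75 and 9.03 fasted and 11.57, 12.16 and 11.94 refed. No other gene of the 18194 had a smaller p in the LG2KO refeeding comparison, where Sdf2l1 rose by 2.97 ± 0.14 (7.82-fold, limma adjusted p = 1.12e-06). In control it rose by 2.51 ± 0.14 (5.71-fold, adjusted p = 1.77e-06).

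Dnajb9 encodes ERdj4, a DnaJ co-chaperone of BiP that is a known target of Xbp1. Its levels scattered within groups, from 8.35 to 8.85 in control fasted, 8.03 to 9.21 in control refed, 8.01 to 9.33 in LG2KO fasted and 8.48 to 8.77 in LG2KO refed livers. All groups overlapped. The difference with refeeding was 0.16 ± 0.33 in control (limma adjusted p = 0.908) and −0.14 ± 0.33 in LG2KO (adjusted p = 0.922). The highest control refed value and the lowest LG2KO fasted value were again those of the arrays that stood apart, and without both the differences were −0.10 in control (adjusted p = 0.84) and −0.53 in LG2KO (adjusted p = 0.116).

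Pdia4 encodes ERp72, a protein disulfide isomerase. It read 10.33, 10.28 and 10.21 in control fasted, 11.45, 11.41 and 11.20 in control refed, 10.33, 10.30 and 10.18 in LG2KO fasted and 11.55, 11.78 and 11.72 in LG2KO refed livers. Its 4 groups were tight, and the LG2KO refed arrays were the highest. It rose with refeeding by 1.08 ± 0.09 in control (2.12-fold, limma adjusted p = 1.94e-05) and by 1.42 ± 0.09 in LG2KO (2.67-fold, adjusted p = 3.45e-06).

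Creld2, a secreted and ER-resident protein with disulfide isomerase activity, was at 9.16, 9.28 and 8.91 in control fasted and at 11.60, 11.66 and 11.58 in control refed livers. In LG2KO it was at 9.59, 9.33 and 8.95 fasted and at 11.95, 12.71 and 12.47 refed. Control refed pools lay close together, and the LG2KO refed pools were all higher and more spread. The rise was 2.50 ± 0.19 in control (5.65-fold, limma adjusted p = 9.16e-06) and 3.09 ± 0.19 in LG2KO (8.50-fold, adjusted p = 3.13e-06). By size, Creld2 ranked 13 from the top among all genes in control and 4 in LG2KO.

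Manf encodes an ER protein that binds BiP and is also secreted as a neurotrophic factor. Its control levels were 11.14, 10.81 and 10.70 fasted and 12.62, 12.44 and 12.53 refed. The LG2KO levels were 11.20, 11.12 and 11.03 fasted and 12.54, 12.80 and 12.65 refed, which overlap the control refed levels. Manf rose by 1.64 ± 0.11 in control (3.12-fold, limma adjusted p = 4.69e-06) and by 1.54 ± 0.11 in LG2KO (2.91-fold, adjusted p = 5.62e-06).

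Of the members of ER-associated degradation, Derl3 encodes a derlin, a membrane protein of the retrotranslocation machinery. It read 8.12, 8.06 and 8.05 in control fasted and 9.78, 9.996 and 9.07 in control refed livers. In LG2KO it read 8.10, 7.93 and 8.66 fasted and 10.45, 11.56 and 11.38 refed. All 3 LG2KO refed pools exceeded all 3 control refed pools, and the refed groups were the most spread. Derl3 rose by 1.54 ± 0.29 in control (2.91-fold, limma adjusted p = 0.00687) and by 2.90 ± 0.29 in LG2KO (7.47-fold, adjusted p = 9e-05).

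Herpud1 encodes a ubiquitin-like ER membrane protein that organises the degradation complex around Hrd1. It was at 12.47 to 12.74 in control fasted, 12.21 to 12.69 in control refed, 12.50 to 12.70 in LG2KO fasted and 12.28 to 12.43 in LG2KO refed livers. The control groups overlapped. The LG2KO refed arrays all lay below the LG2KO fasted ones, an order that 8.38% of all genes had, and the difference of −0.23 ± 0.11 did not pass (limma adjusted p = 0.306). In control it was −0.18 ± 0.11 (adjusted p = 0.495).

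Xbp1, the transcription factor that Ire1 activates by splicing, was at 12.52, 12.55 and 12.52 in control fasted and at 12.72, 12.58 and 12.67 in control refed livers. LG2KO levels were 12.44, 12.60 and 12.62 fasted and 12.81, 12.90 and 12.79 refed. Refed arrays lay above fasted arrays in both genotypes by small steps. The rise in LG2KO was 0.28 ± 0.06 (1.21-fold, limma adjusted p = 0.0147), and the difference in control was 0.13 ± 0.06 (adjusted p = 0.31). The LG2KO call ended without LG2KO refed replicate 2 or without LG2KO fasted replicate 1. These values are transcript levels, and where the probes lie relative to the spliced segment was not known.

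**Figure D2:**
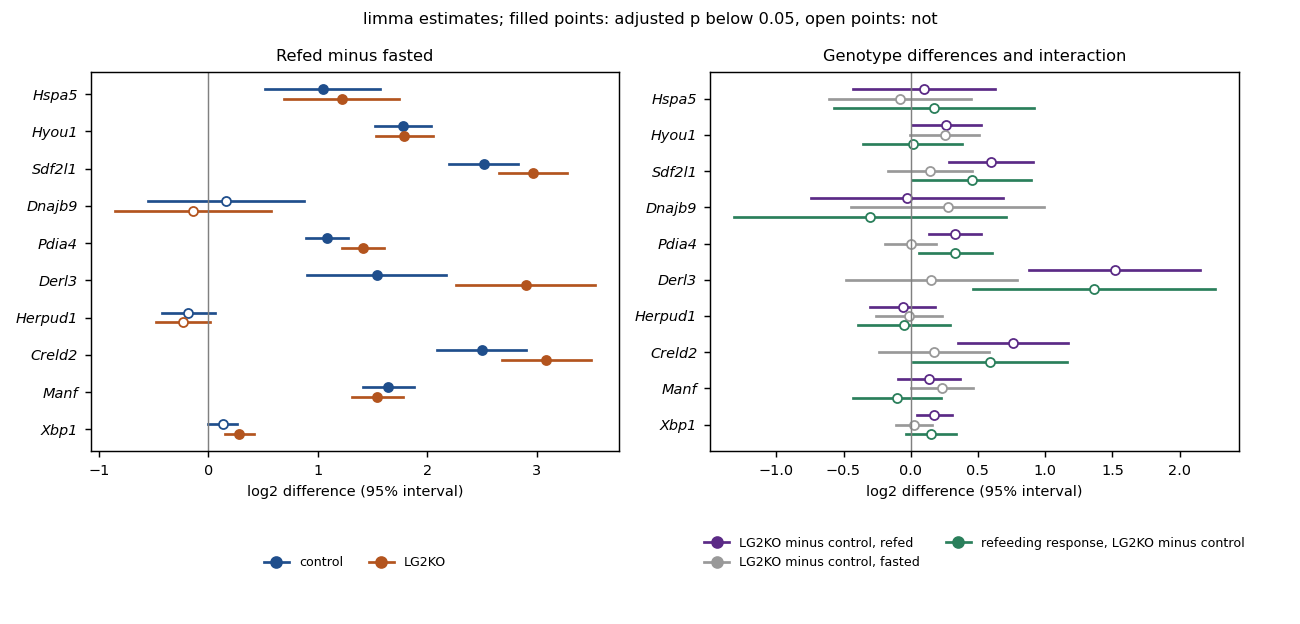
Log2 differences of the 10 genes in the comparisons of the design, with 95% confidence intervals from the limma fit over 12 arrays; filled points passed at an adjusted p below 0.05. The refeeding differences run from Creld2 and Sdf2l1 at 2.50 or more to Dnajb9 and Herpud1 near 0, and no genotype or interaction point is filled.

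The fasted and refed arrays did not overlap, with refed higher, for 8 of the 10 genes in each genotype, an order that 9.64% of all genes had in control and 14.1% in LG2KO. The control and LG2KO comparisons used separate arrays but a shared estimate of the spread of each gene, so their calls are not independent. With refeeding 599 genes rose in control and 847 in LG2KO. The lists shared 392 genes, 65.4% of the control list and 46.3% of the LG2KO list. Of the 10 genes, the 7 that rose in control also rose in LG2KO, 100% of the control members and 87.5% of the LG2KO members. On control fasted replicate 3, the array with pancreatic transcripts, Derl3 was at 8.05, Creld2 at 8.91 and Sdf2l1 at 8.75, and 6 of the 10 genes had their lowest control fasted value on that array. Without it and both arrays that stood apart, 7 and 8 of the 10 genes still rose. Means of the B and plasma cell markers were 4.79 to 5.14 in control fasted and 4.999 to 5.13 in control refed livers, and 4.97 to 5.03 and 4.91 to 5.15 in LG2KO, so the groups overlapped. Markers of hepatocytes in LG2KO averaged 13.53 to 13.66 fasted and 13.50 to 13.51 refed, and markers of endothelium in control 7.66 to 7.70 fasted and 7.34 to 7.66 refed, without overlap in either case. The groups overlapped in both refeeding comparisons for markers of macrophages, stellate cells and fibroblasts, cholangiocytes, T and NK cells and erythroid cells. Their part in the results was not tested. In bulk liver, fewer cells of a type and less RNA of the marker genes per cell cannot be told apart.

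Because the 10 genes are known for shared promoter elements, windows from 250 bases before to 50 after the gene start were searched on both strands in the RefSeq promoter table (GRCm38.p6). The table held 8 of the 10 genes, and Hyou1 and Manf were not matched. The ER stress response element (ERSE), a CCAAT box and a CCACG box with 9 bases of any kind between them, was present in 39 of 32851 windows (0.119%). Creld2, Derl3 and Hspa5 carried it, as did Calr, Canx, Dnajc3, Ero1b, Hsp90b1, Pdia6 and Syvn1 among the listed pathway genes described below. The related ERSE-II, an ATTGG and a CCACG box with 1 base between them, was present in 12 windows (0.0365%), those of Herpud1 and Dnajb11 included; its ATTGG is CCAAT read on the opposite strand. The first 4 stretches below show these elements, and the fifth the Sdf2l1 promoter without one. Boxes read CCAAT and CCACG, or the reverse complements ATTGG and CGTGG. In the first 4 stretches capitals mark only the boxes of the element, and boxes outside it stay in lower case. In the fifth every box is in capitals.
Hspa5: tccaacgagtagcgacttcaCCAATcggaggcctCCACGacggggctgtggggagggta
Creld2: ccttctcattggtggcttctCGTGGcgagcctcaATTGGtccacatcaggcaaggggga
Derl3: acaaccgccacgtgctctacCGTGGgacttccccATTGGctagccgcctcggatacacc
Herpud1: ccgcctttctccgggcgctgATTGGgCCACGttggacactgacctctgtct
Sdf2l1: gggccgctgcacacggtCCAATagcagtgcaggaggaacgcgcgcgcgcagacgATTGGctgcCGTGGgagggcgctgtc

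These lie at chr2:34772005-34772063 (Hspa5), chr15:88819500-88819558 (Creld2), chr10:75893222-75893280 (Derl3) and chr8:94386357-94386407 (Herpud1), all on the plus strand, and at chr16:17132384-17132463 on the minus strand for Sdf2l1. All are upstream of the gene start. The Sdf2l1 stretch is the last 80 bases before it and is shown because Sdf2l1, first by p in the LG2KO refeeding comparison, had no full match: it holds both boxes, on the opposite strand with CCACG before CCAAT, the reverse of their order in the element. The single boxes are common, with CCACG in 32.8% and CCAAT in 37.4% of all windows, and 7 of the 8 matched genes held each. With up to 1 mismatch in its fixed letters, the ER stress response element was found in 5 of the 8, Herpud1 and Pdia4 added, and in 1.5% of all windows. TGACGTGG, the core of the unfolded protein response element, was in 0.676% of windows and in 0 of the 8. The 3 genes with the full element rose with refeeding in both genotypes, and so did Sdf2l1 and Pdia4 without it. Also without it, Xbp1 passed in LG2KO only and Dnajb9 in neither genotype. Herpud1, with ERSE-II, did not pass in either. Of the listed pathway genes with the full element, Calr, Pdia6 and Syvn1 rose in both genotypes and Hsp90b1 in control only. Canx, Dnajc3 and Ero1b carried it and passed in neither. Dnajb11, the listed gene with ERSE-II, rose in both. A match describes letters only, and binding was not measured.

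Genotype was compared next within the refed state. Here 0 of the 10 genes passed, against 0.379% of all genes (0.291% higher and 0.0879% lower), while 6 of the 10, against 9.13% of all genes, had an unadjusted p below 0.05. Derl3 was highest, at 1.52 ± 0.29 above control (2.86-fold, 95% interval 1.84 to 4.44, limma adjusted p = 0.0541). Sdf2l1 was 0.60 ± 0.14 above control (1.51-fold, adjusted p = 0.132) and Creld2 0.76 ± 0.19 (1.69-fold, adjusted p = 0.142). Pdia4 was 0.33 ± 0.09 above control (1.26-fold, adjusted p = 0.187). For Derl3, Creld2, Sdf2l1, Pdia4, Hyou1 and Xbp1 all 3 LG2KO refed arrays exceeded all 3 control refed arrays, an order that 10.3% of all genes had. The opposite order was seen for 0 of the 10 and for 5.19% of all genes. These orders are those of the probe set with the highest mean. Some dimmer probe sets of Xbp1, Hyou1 and Pdia4 overlapped between the refed groups, while others of Xbp1 and Hyou1 did not. The median difference of the 10 genes was 0.22, against 0.02 over all genes.

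Derl3 lay close to the threshold in this comparison. It passed with array quality weights (limma adjusted p = 0.0258), over genes above the median level only (adjusted p = 0.0467) and without LG2KO refed replicate 1 (adjusted p = 0.0233). That replicate was the lowest of the 3 LG2KO refed arrays for 8 of the 10 genes, and replicate 2 was the highest for 8. Hspa5, Manf, Dnajb9 and Herpud1 differed by 0.10, 0.13, −0.03 and −0.06, with intervals from −0.43 to 0.62, −0.10 to 0.37, −0.74 to 0.69 and −0.30 to 0.18. Their groups overlapped. Exocrine pancreas markers averaged 5.26 to 5.30 in control refed and 5.17 to 5.20 in LG2KO refed livers, and B and plasma cell markers overlapped.

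In the fasted state 0 of the 10 genes passed, against 0.396% of all genes (0.308% higher and 0.0879% lower), and 1, Manf, had an unadjusted p below 0.05, as did 5.2% of all genes. Manf was 0.23 ± 0.11 above control (limma adjusted p = 0.951). The fasted groups of all 10 genes overlapped, whereas 4.67% of all genes had LG2KO arrays wholly above and 6.11% wholly below control. The widest intervals were those of Dnajb9, from −0.44 to 0.99, Derl3, from −0.48 to 0.79, and Hspa5, from −0.60 to 0.45.

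The interaction asks whether the response to refeeding differed between genotypes. It passed for 0 of the 10 genes and for 0.0055% of all genes, which was 1 gene, and 4 of the 10, against 4.73% of all genes, had an unadjusted p below 0.05. For Derl3 the response in LG2KO exceeded that in control by 1.36 ± 0.41, without passing (95% interval 0.46 to 2.26, limma adjusted p = 0.734). The corresponding differences were 0.59 for Creld2 (0.01 to 1.17), 0.45 for Sdf2l1 (0.01 to 0.89) and 0.33 for Pdia4 (0.06 to 0.61). For Hyou1 and Manf they were 0.01 (−0.35 to 0.38) and −0.10 (−0.43 to 0.23). A larger response in LG2KO was thus not established for any of the 10 genes after adjustment. Their difference was positive in 7 of 10 genes, against 54.8% of all genes.

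The 10 genes were represented by 19 probe sets, 5 of the genes by more than 1, and each was also tested on its own. With refeeding 11 rose in control and 13 in LG2KO, against 2.13% and 2.63% of all probe sets. In the genotype comparisons after refeeding and fasting and in the interaction 0 passed, against 0.12%, 0.197% and 0.0111% of all probe sets. All 3 probe sets of Hyou1 rose in both genotypes, by 1.58 to 1.96 in control and by 1.66 to 2.15 in LG2KO. Of the Hspa5 probe sets, the second one rose by 1.19 ± 0.30 in control and 1.35 ± 0.30 in LG2KO, while the third differed by 0.01 and 0.12. The dimmer probe set of Pdia4, at a mean level of 4.07, differed by 0.00 in control and 0.16 in LG2KO. For Xbp1, a second probe set rose in both genotypes, by 0.32 in control (limma adjusted p over all probe sets = 0.032) and 0.49 in LG2KO (adjusted p = 0.0025). Another Xbp1 probe set rose by 0.45 in LG2KO (limma adjusted p = 0.00695) and differed by 0.28 in control without passing (adjusted p = 0.0886). The dimmest Xbp1 probe set, at a mean level of 8.7, passed in neither genotype. It differed by 0.105 in control (limma adjusted p = 0.776) and 0.025 in LG2KO (adjusted p = 0.978). The Xbp1 calls in control and in LG2KO therefore both depend on the probe set read.

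**Figure D3:**
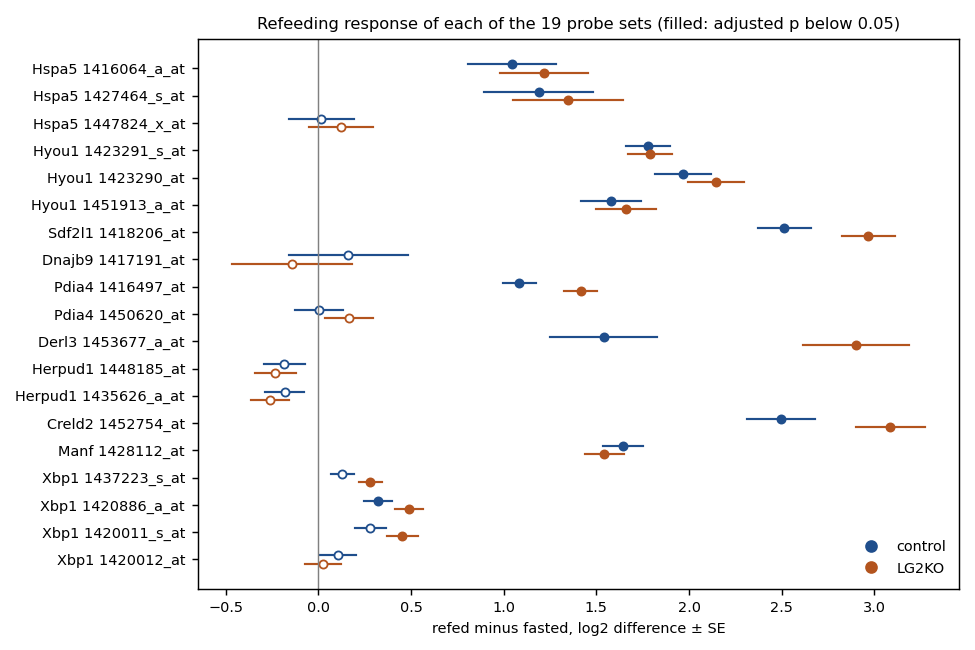
Log2 difference with refeeding for each of the 19 probe sets of the 10 genes, in control and in LG2KO, with standard errors from the limma fit over all probe sets. The 3 Hyou1 probe sets lie together, while 1 of the Hspa5 and 1 of the Pdia4 probe sets lie near 0.

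The remaining machinery of the pathway was read from lists of genes grouped by function. Over all genes 3.29% rose and 3.17% fell with refeeding in control, and 4.66% rose and 2.4% fell in LG2KO. These shares stand beside the refeeding counts of every list below that names no other share. Among 9 measured sensors and regulators, 2 rose with refeeding in control and 1 in LG2KO, and 0 fell. Atf6b, a relative of Atf6, rose by 0.71 ± 0.11 and 1.11 ± 0.11 (limma adjusted p = 0.00218 and 9.63e-05). Ern1 rose by 0.72 ± 0.17 in control (adjusted p = 0.0251), a call that held in 2 of 6 fits that left out 1 array, and its LG2KO difference of 0.43 did not pass (adjusted p = 0.197). Atf6 (−0.21 and −0.16) and Eif2ak3 (0.40 and 0.33) did not pass.

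Of 12 further chaperones and co-chaperones, 4 rose in control and 3 in LG2KO. Calr, the lectin chaperone calreticulin, rose by 0.68 ± 0.07 and 0.76 ± 0.07 (limma adjusted p = 7.29e-05 and 3.84e-05). Dnajb11, a BiP co-chaperone, rose by 1.19 ± 0.14 and 1.15 ± 0.14. Hsp90b1, the ER Hsp90, rose by 1.40 ± 0.35 in control (adjusted p = 0.0316, held in 1 of 6 fits without 1 array) and differed by 1.26 ± 0.35 in LG2KO (adjusted p = 0.0501). Dnajc3 differed by 0.64 and 0.87 without passing. The calls of Uggt1 held in 3 of 6 fits without 1 array in each genotype. The list medians were 0.61 and 0.31.

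Oxidative folding enzymes and prolyl isomerases form and check the bonds of the folding chain: 7 of 14 rose in control and 8 in LG2KO, with medians of 0.44 and 0.48. The LG2KO calls of Pdia5 and P4hb held in 2 and 4 of 6 fits without 1 array. Fkbp11, a prolyl isomerase, rose by 1.46 ± 0.15 and 1.30 ± 0.15. Pdia6 rose by 1.15 ± 0.13 and 0.98 ± 0.13, and Txndc5, a disulfide isomerase, by 0.74 ± 0.07 and 0.95 ± 0.07. Genes of the translocon, signal peptidase and N-glycosylation carry new chains into the ER and add their sugars. Of 20 measured, 10 rose in control and 8 in LG2KO, with medians of 0.52 and 0.36. The control calls of Sec11a and Sec11c held in 0 of 6 fits without 1 array. Those of Dad1 held in 1 of 6 in each genotype. Sec61b, a subunit of the channel, rose by 0.75 ± 0.06 and 0.56 ± 0.06, and Ddost, a subunit of the oligosaccharyltransferase, by 0.66 ± 0.07 and 0.82 ± 0.07.

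Of 16 measured genes of ER-associated degradation, 3 rose in control and 5 in LG2KO, with medians of 0.19 and 0.32. Without both arrays that stood apart 6 and 8 passed, while the share of all genes that passed was 12.1% in control and 17.5% in LG2KO in place of 6.46% and 7.05%. Syvn1, the ubiquitin ligase Hrd1, rose by 0.68 ± 0.14 and 0.94 ± 0.14, and its control call held in 4 of 6 fits without 1 array. Derl2, a relative of Derl3, rose by 0.55 ± 0.07 and 0.39 ± 0.07. The LG2KO call of Ube2g2 held in 1 of 6 fits without 1 array. Of 18 genes of transport from ER to Golgi, 4 rose in control and 5 in LG2KO (13 passed without both arrays that stood apart, at the same wider background), among them the retrieval receptor Kdelr2 by 0.51 ± 0.07 and 0.66 ± 0.07.

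The branch of Perk and the integrated stress response moved in both directions, with medians of −0.21 in control and −0.17 in LG2KO. Of 12 genes, 2 rose and 3 fell in control, and 1 rose and 2 fell in LG2KO. Without both arrays that stood apart 5 passed in LG2KO, against 17.5% of all genes, and 3 passed in control when control fasted replicate 3 was left out as well, against 9.26% of all genes. Ddit3, the factor Chop, rose by 0.81 ± 0.12 and 0.82 ± 0.12. Atf4 rose by 0.35 ± 0.09 in control (limma adjusted p = 0.0298, held in 2 of 6 fits without 1 array). Trib3, a pseudokinase induced by Chop, fell by 1.42 ± 0.13 and 0.64 ± 0.13, and Chac1, which degrades glutathione, fell by 1.64 ± 0.30 and 1.33 ± 0.30. The LG2KO call of Chac1 held in 3 of 6 fits without 1 array. Heat shock chaperones that work outside the ER rose for 6 of 11 measured genes in each genotype, with medians of 0.87 and 0.83. They are cytosolic except Hspe1 and Hspd1, which are mitochondrial. The calls of Hsp90aa1 held in 2 of 6 fits without 1 array in each genotype. Those of Bag3 held in 1 of 6 in control and 3 of 6 in LG2KO, and that of Hspe1 in 2 of 6 in LG2KO. Hspb1 rose by 1.69 ± 0.26 and 1.99 ± 0.26.

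**Figure D4:**
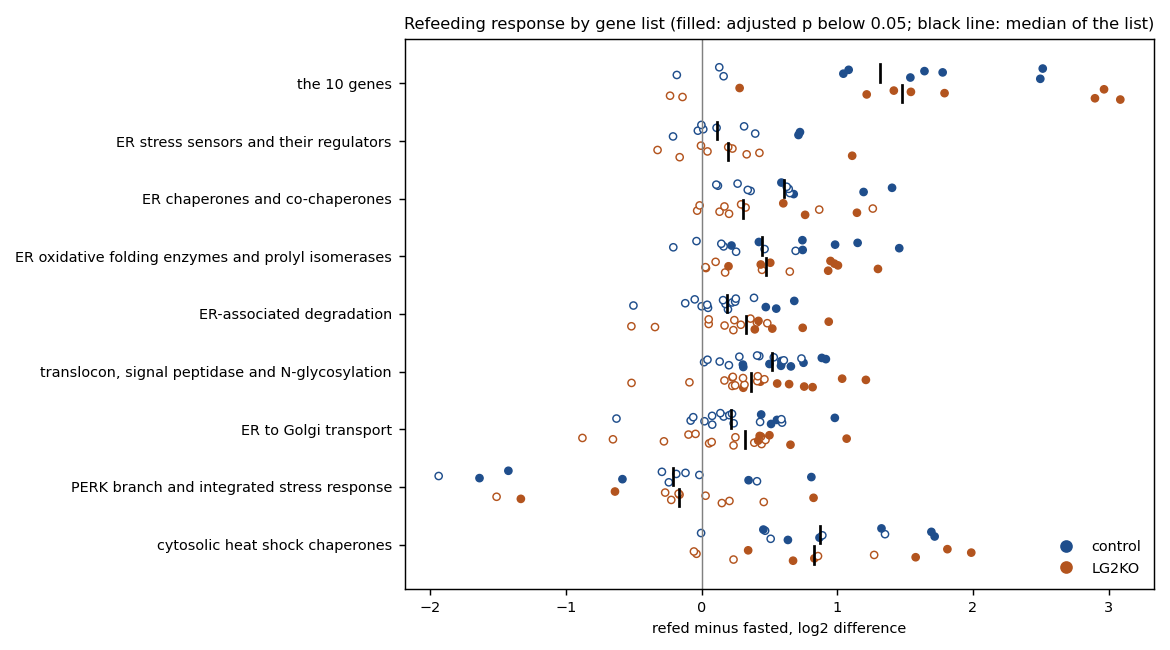
Log2 difference with refeeding for the measured genes of each pathway list and for the 10 genes described here, in control and in LG2KO; each point is a gene, filled where it passed at an adjusted p below 0.05, and bars are medians. The 10 genes have medians of 1.31 and 1.48, and the integrated stress response has medians below 0. The list labelled cytosolic heat shock chaperones also holds the mitochondrial Hspe1 and Hspd1.

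Between genotypes after refeeding, 2 of 16 measured genes of ER-associated degradation passed, against 0.379% of all genes. Both were chosen after their values were seen. Edem1, a lectin-like protein that directs misfolded glycoproteins to degradation, was 0.61 ± 0.08 above control (limma adjusted p = 0.0101), and the call ended without LG2KO refed replicate 3 (adjusted p = 0.056). Edem2 was 0.61 ± 0.09 above control (adjusted p = 0.021), held in 2 of 6 fits without 1 array. Edem1 rose with refeeding in LG2KO by 0.52 ± 0.08 and differed by 0.05 ± 0.08 in control. The interaction for Edem1 was 0.47 ± 0.11 and did not pass (adjusted p = 0.409). Trib3 was higher by 0.71 (adjusted p = 0.0405) and Atf4 lower, at −0.45 (adjusted p = 0.0477), with 1 and 0 of 6 fits holding without 1 array. In the translocon, Sec61a1, the pore subunit, was 0.32 ± 0.06 above control after refeeding (adjusted p = 0.0369, held in 0 of 6 fits), and Sec61b was 0.38 ± 0.06 above control in the fasted state (adjusted p = 0.0184, held in 1 of 6 fits). Sec61a1 was likewise chosen after its values were seen.

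The mean of the 10 genes, each centred on its own mean over the 12 arrays, was then set against every other gene. The 10 closest, by mean absolute difference over the 12 arrays, were Tmed3, Papss1, Hdhd3, Gmppb, Nme6, Ubfd1, Lrrc59, Dnajb11, Nbas and Slc35b1. Their differences ran from 0.116 to 0.154, against a median of 0.68 over all genes. Within the 10 genes, Pdia4 lay closest to the mean at 0.083, followed by Manf at 0.14, Hyou1 at 0.217 and Hspa5 at 0.231, and the other 6 lay at 0.573 to 0.78. The closeness is a description over arrays that share the feeding contrast. Tmed3, a cargo receptor of the early secretory path, rose by 0.97 in control and 1.35 in LG2KO, and Lrrc59, a ribosome-binding ER membrane protein, by 1.04 and 1.24. Gmppb, which makes the mannose donor of glycosylation, rose by 1.36 and 1.65.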

How the data were processed

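The deposited values are log2 levels that the authors computed with RMA (background correction, equalised array distributions, probe summary), per the submitters' processing notes. Software version and build were not given in the sources used here. Of 45101 probe sets, 34958 had 1 gene symbol in the platform annotation, 932 several and 9211 were not listed. The probe set with the highest mean stood for a gene, which left 18194 genes, with no filter on dim ones.

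All 12 arrays entered 1 limma 3.58.1 fit in R 4.3.3 (lmFit, eBayes with intensity trend, 1 mean per group, 8 residual degrees of freedom), checked on simulated data. Tests were two-sided, adjusted by Benjamini-Hochberg within each of 5 comparisons. P-values measure the spread between pools, and array number limits the precision. The members and lists were chosen with earlier results of these data known. Named were all members, Slc2a2, Pck1, up to 4 passing genes with the smallest adjusted p per list, certain sensors and targets passed or not, and the 10 most alike genes. Some listed genes whose calls ended in fits without 1 array were also named. Alternatives were the intensity trend, array weights, dim-gene filters, probe choice, centring arrays on their median, a replicate block and leaving out arrays.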

Additional observations from a re-analysis of the deposited data

How the results depend on the processing

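The number of the 10 genes that passed with refeeding was 7 in control under every planned setting other than leaving out 1 array, and 6 to 7 when 1 array was left out. In LG2KO it was 8, with 7 without the intensity trend, where Xbp1 missed (limma adjusted p = 0.0744), and 7 to 8 when 1 array was left out. For genotype after refeeding it was 0, but 1 (Derl3) with array weights, 1 among genes above the median mean, and 0 to 1 when 1 array was left out. It stayed at 0 for genotype in the fasted state and for the interaction under all settings tried. With the replicate number as a block the counts were 7, 8, 0, 0 and 0. The numbers do not pair the arrays: same-numbered arrays correlated at −0.46 to 0.77 in their deviations (median −0.08), others at −0.81 to 0.61 (median 0.03). The count over all genes varied more. Without both arrays that stood apart it was 2202 in control and 3187 in LG2KO, or 12.1% and 17.5% of genes, against 1176 and 1283. With that setting, 2 sensors passed in LG2KO. The list counts without these arrays, and the fits of listed genes without 1 array, were chosen after seeing the data. Single values of the 10 genes were tallied, with the lowest and highest over fits without 1 array standing for those fits. Of these, 598 kept their direction and side of the threshold, and 36 that were not called changed sign. Another 3 lost their call and 3 gained one. Taken fit by fit, the control call of Hspa5 held in 2 of 6 fits without 1 array and the LG2KO call of Xbp1 in 4 of 6. Dnajb9 had the widest standard error, 0.33, with a within-group SD of up to 0.70.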
